A study of Mus musculus with 42 samples.

Results

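Mettl21c and Mettl21e encode a pair of muscle methyltransferases, and RNAseq of tibialis anterior (TA) muscle, a lower hindlimb muscle, gave their values in 42 mouse libraries. The 2 genes were chosen by symbol from the 13809 genes of the deposited table, and they were selected on these data: Mettl21c on its lower values after disuse and Mettl21e on its difference between Sesn2 transgenic and wild-type (WT) muscle. The values of those contrasts are therefore given as a description, without a p-value. All mice were 4-month-old C57BL/6J males. Set 1 holds 22 libraries of WT, Sesn1SkM-Tg and Sesn2SkM-Tg mice, collected as basal muscle or 3 days into an immobilization in which rigid sticks and a bandage held the right hindlimb. Sesn1SkM-Tg mice carry human Sesn1 under the MCK promoter, which is active in muscle fibres, and Sesn2SkM-Tg mice carry a Tet-regulated Sesn2 together with MCK-tTA. Set 2 holds 20 libraries of WT and Sesn1KO mice, basal or immobilized, and of WT mice denervated by removal of a segment of the right sciatic nerve, for which the labels do not give the day of collection. There are 11 groups of 4 libraries, but only 3 in immobilized Sesn1SkM-Tg muscle and in immobilized WT muscle of set 1. Transgenic lines were compared with non-transgenic littermates, whose line the labels do not name, and Sesn1KO mice, a Sesn1 knockout line, with control WT mice. Nothing in the labels says that the libraries of a group came from separate animals, so the p-values measure the spread between these samples.

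METTL21 proteins are seven-beta-strand methyltransferases that place methyl groups on lysines of other proteins, among them chaperones and translation factors. METTL21C is known mainly from skeletal muscle, where Hspa8, a constitutive Hsp70 chaperone, and alanyl-tRNA synthetase have been described as its substrates. Mettl21e is its close relative in rodents, is also muscle-enriched and has been linked to the size of fast fibres, and its human counterpart is a pseudogene.

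Both genes lie on chromosome 1 of the mouse (GRCm38), on the minus strand. Mettl21c (ENSMUSG00000047343) occupies chr1:44009408-44020034 and Mettl21e (ENSMUSG00000046828) chr1:44204070-44218961, 184.035 kb apart with 5 protein-coding genes between them. The coding transcript of each has 5 exons, of which 4 hold coding sequence, with 744 coding bases in Mettl21c and 732 in Mettl21e. The aligned coding sequences were identical at 442 of 707 positions (62.5%), with no identical run longer than 11 bases, and no 30-base stretch was shared by the annotated transcripts of the 2 genes. The most alike 60-base stretch of coding sequence is printed to show how far even there the genes can be told apart by a read, with the 16 differing bases in capitals. Both were read from the GENCODE M21 transcripts, 5′ to 3′ on the transcript strand, at chr1:44009974-44010033 (minus strand, coding bases 353 to 412) for Mettl21c and chr1:44206694-44206753 (minus strand, coding bases 332 to 391) for Mettl21e.
Mettl21c: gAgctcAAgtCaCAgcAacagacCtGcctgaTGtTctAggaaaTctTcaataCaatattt
Mettl21e: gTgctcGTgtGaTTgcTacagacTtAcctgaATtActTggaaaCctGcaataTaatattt
The authors discarded reads shorter than 30 bases, so no read that was kept could match annotated transcripts of both genes exactly.

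Values are given as normalized counts, linear and close to CPM, which summed to between 722430 and 1276769 per library, and the read depth behind them is unknown. Log2 fold changes are on the log2(value + 1) scale, which understates the change of a gene as low as Mettl21e. A gene was called differentially expressed in limma where the log2 fold change reached 0.25 in either direction with a Benjamini-Hochberg adjusted p under 0.05. The labels were checked on Sesn1 and Sesn2. Sesn1 was higher in basal Sesn1SkM-Tg than in WT muscle (log2 fold change 1.61, limma adjusted p = 0.0021) and lower in basal Sesn1KO muscle (-1.39, adjusted p = 0.00011), where reads of the gene were still counted at 8.41 to 10.05, and Sesn2 was higher in basal Sesn2SkM-Tg muscle (1.66, adjusted p = 7.3e-05). After immobilization the Sesn1 differences did not pass the test (1.43, adjusted p = 0.091 in Sesn1SkM-Tg and -0.66, adjusted p = 0.069 in Sesn1KO). Sesn1 was at 19.4 to 37.3 in immobilized Sesn1KO libraries, which overlapped both immobilized WT (30.7 to 53.1) and basal WT libraries of set 2 (22.5 to 29.7), so its level did not check the label there. All 8 muscle fibre markers examined were in the table, and their summed value was at least 54105.5 in each library.

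Mettl21c was well expressed in basal muscle, lower in every immobilized WT library and lowest in denervated muscle. In the basal WT libraries of set 1 its normalized counts were 48.1, 51.8, 28.9 and 29.4, and in those of set 2 they were 30.2, 37.2, 36.5 and 90.9. Immobilization left 3.39, 3.55 and 2.03 in the WT muscles of set 1, and 10.1, 11.5, 7.85 and 11.8 in those of set 2. In denervated WT muscle the values were 1.09, 0.817, 0.860 and 1.62. The basal and immobilized groups of WT muscle did not overlap in either set, and the denervated libraries were all below the immobilized ones of set 2. Here and below, non-overlap is a description of the members, and the share of all genes that separate in this way is not given. In the basal WT libraries of set 2 Mettl21c stood above 74.5% to 90.8% of the genes in the table, and in the denervated libraries above 12.3% to 21.3%. If the values were adjusted gene by gene between the sets, such ranks among genes would move with it.

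**Figure D1:**
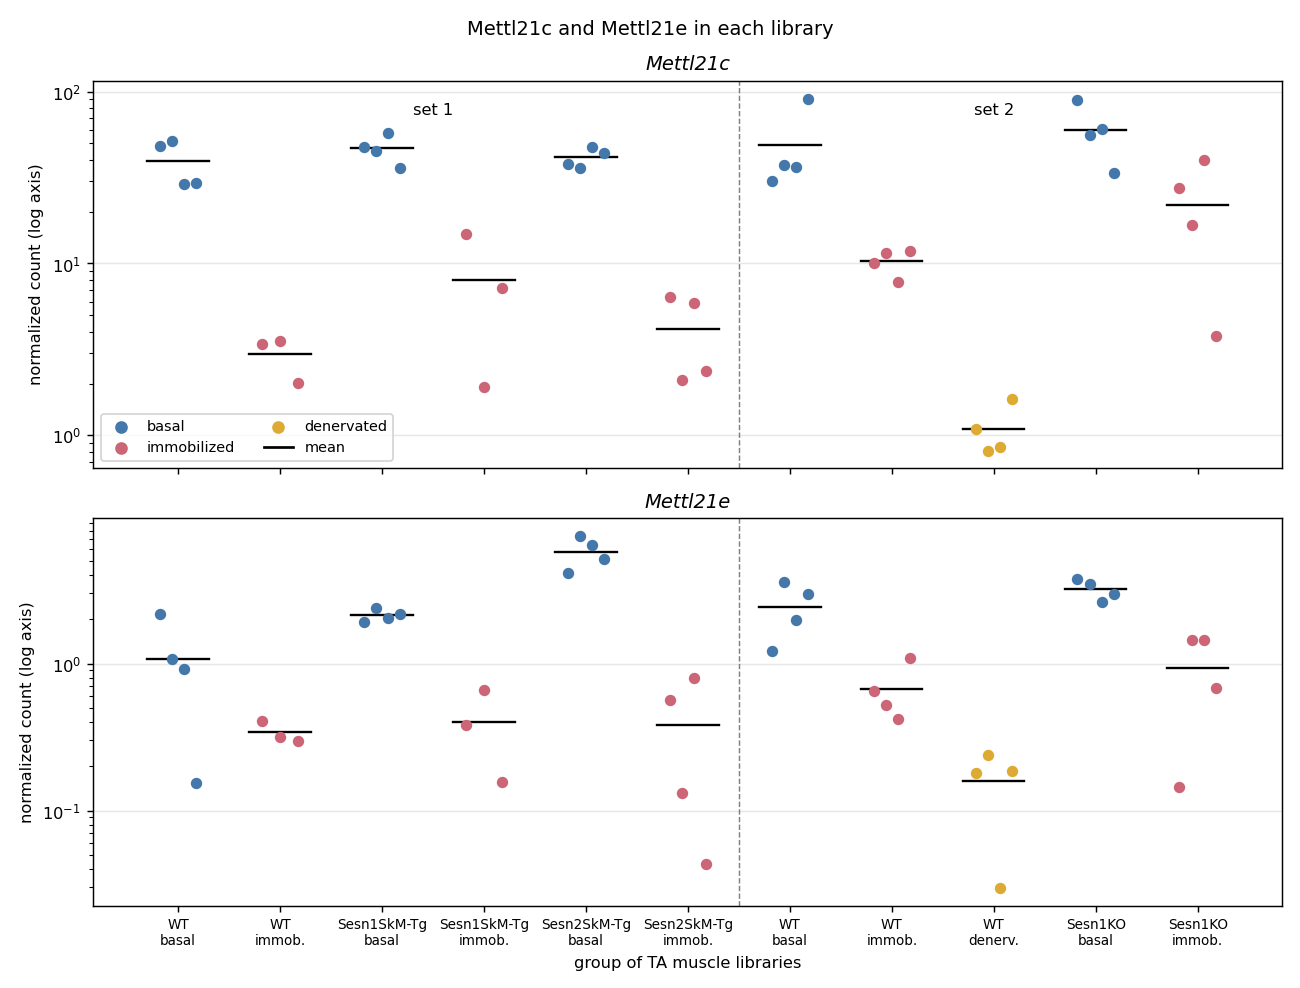
Normalized counts of Mettl21c (top) and Mettl21e (bottom) on log axes, with 1 point per library, colours for the basal, immobilized and denervated state, and a line for the mean of each of the 11 groups. The dashed line separates set 1 from set 2, between which levels should not be compared. All denervated libraries lie below the immobilized WT libraries of set 2 for both genes, and basal Sesn2SkM-Tg muscle has the 4 highest Mettl21e values of set 1.

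As means, Mettl21c was 39.6 ± 12.1 (SD, n = 4) in basal and 2.99 ± 0.834 (SD, n = 3) in immobilized WT muscle of set 1, 7.55% of the basal mean. The log2 fold change was -3.32 (SE 0.40), and only 2 of the 13705 genes tested had a lower one. In this comparison 29.3% of genes were differentially expressed, 14.5% lower. In set 2 the means were 48.7 ± 28.3 (SD, n = 4) in basal, 10.3 ± 1.79 (SD, n = 4) in immobilized and 1.10 ± 0.369 (SD, n = 4) in denervated muscle. The log2 fold change was -2.01 (SE 0.45) for immobilization, with 33.9% of genes differentially expressed and 17.7% lower, and -4.44 (SE 0.45) for denervation, with 55.5% differentially expressed and 27.7% lower. The denervated mean was 2.25% of the basal one, and 2 of 13629 genes had a lower log2 fold change. Denervated against immobilized muscle gave -2.43 (SE 0.45), where 38.9% of genes were differentially expressed. The mean and SD of the basal WT group of set 2 rest on its replicate 4. Without that library the log2 fold change was -1.66 for immobilization and -4.10 for denervation.

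Immobilized muscle of the other genotypes also held less Mettl21c than its own basal muscle. Basal Sesn1SkM-Tg libraries had 47.8, 45.0, 57.7 and 36.1 and immobilized ones 14.9, 1.92 and 7.23, a log2 fold change of -2.70 (SE 0.40). Basal Sesn2SkM-Tg libraries had 38.1, 35.8, 47.7 and 44.1 and immobilized ones 6.36, 2.09, 5.91 and 2.36, a log2 fold change of -3.14 (SE 0.37). The basal and immobilized groups did not overlap in either transgenic line. The immobilized Sesn1SkM-Tg libraries were the more scattered of these, with a coefficient of variation of 81.2%, against 27.9% for immobilized WT muscle of set 1. The background share of differentially expressed genes was 34.7% in the Sesn1SkM-Tg and 30.7% in the Sesn2SkM-Tg comparison.

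Sesn1KO muscle was the exception in which the groups overlapped. Its basal values were 89.7, 55.5, 60.6 and 33.4, and its immobilized values 27.3, 16.8, 40.1 and 3.79. The immobilized library at 40.1 lay above the lowest basal one, while the other 3 lay below all basal libraries. The immobilized mean was 36.8% of the basal mean, the largest share left in any of the 5 immobilization comparisons. The log2 fold change was -1.69 (SE 0.45), with -2.10 when immobilized replicate 3, the library at 40.1, was left out and -1.06 without replicate 4, the one at 3.79, and 37.1% of genes were differentially expressed in the comparison. The difference from WT muscle in the immobilization response was 0.31 on the log2 scale for Sesn1KO, where 0.022% of genes were differentially expressed, and 0.62 for Sesn1SkM-Tg, where limma called 0 genes (0% of those tested, 401 at an unadjusted p under 0.05).

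Between genotypes in the same state, Mettl21c passed the limma test in 0 of the 8 comparisons, with 1 unadjusted p under 0.05, in the libraries on which it was chosen for disuse. Such comparisons called few genes: 0.0292% of those tested between Sesn1SkM-Tg and WT in basal muscle and 0.0073% in immobilized muscle, 2.5% and 2.94% between Sesn2SkM-Tg and WT, 1.79% and 5.79% between the transgenic lines, and 0.147% and 0.947% between Sesn1KO and WT. Basal Sesn1SkM-Tg and Sesn2SkM-Tg muscle differed from WT muscle by 0.26 (95% interval -0.50 to 1.02, limma adjusted p = 1) and 0.10 (-0.66 to 0.87, adjusted p = 0.94), and from each other by 0.16 (-0.60 to 0.92, adjusted p = 0.91). Basal Sesn1KO muscle differed from WT muscle by 0.35 (-0.59 to 1.29, adjusted p = 1). The low values of immobilized libraries entered the choice of Mettl21c, so its differences in immobilized muscle are given as a description. They were 0.89 (SE 0.42) for Sesn1SkM-Tg against WT, 0.29 (SE 0.40) for Sesn2SkM-Tg against WT and 0.60 (SE 0.40) for Sesn1SkM-Tg against Sesn2SkM-Tg. The Sesn1SkM-Tg differences rested on single libraries: without immobilized Sesn1SkM-Tg replicate 1, at 14.9, they were 0.321 against WT and 0.0334 against Sesn2SkM-Tg, and without replicate 2, at 1.92, they were 1.54 and 1.25. Immobilized Sesn1KO muscle was 0.67 (SE 0.45) above immobilized WT muscle. That value also rested on single libraries. It was 1.3 without immobilized Sesn1KO replicate 4, the library at 3.79, and 0.26 without replicate 3, the one at 40.1.

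Mettl21e was expressed at a lower level than Mettl21c. Per kilobase of annotated exon, the level of Mettl21c in basal WT libraries was 20.4 to 176 times that of Mettl21e in set 1 and 9.54 to 28.2 times in set 2, ratios that a gene by gene adjustment between the sets would also alter. No immobilized library of set 1 and no denervated library reached a normalized count of 1 for Mettl21e. The number of reads behind such values is unknown.

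Mettl21e was lower after disuse in set 2, none of whose libraries was used to choose it. Its basal WT values were 1.22, 3.59, 1.99 and 2.97, its immobilized values 0.651, 0.520, 0.418 and 1.08, and its denervated values 0.181, 0.240, 0.0297 and 0.186. The basal, immobilized and denervated groups of WT muscle did not overlap. The means were 2.44 ± 1.05 (SD, n = 4), 0.669 ± 0.294 (SD, n = 4) and 0.159 ± 0.0904 (SD, n = 4). Mettl21e fell with immobilization by 1.01 on the log2 scale (SE 0.24, limma adjusted p = 0.0022) and with denervation by 1.52 (SE 0.24, adjusted p = 1.3e-05). In these comparisons 33.9% and 55.5% of all genes were differentially expressed, and 405 genes had a lower log2 fold change with denervation. The difference between denervated and immobilized muscle, -0.51 (SE 0.24), did not pass the limma test (adjusted p = 0.089), in a comparison where 38.9% of all genes were differentially expressed. With a pseudocount of 0.1 in place of 1 that difference was -1.58 (adjusted p = 0.014), and in a fit of the denervated and immobilized groups alone it was -0.51 (adjusted p = 0.032). In Sesn1KO muscle, basal values of 3.76, 3.50, 2.62 and 2.98 stood against immobilized values of 0.144, 1.45, 1.44 and 0.682. These groups did not overlap either, and Mettl21e fell by 1.19 (SE 0.24, limma adjusted p = 0.00043), where 37.1% of all genes were differentially expressed. The response to immobilization differed between Sesn1KO and WT muscle by -0.18 (95% interval -0.87 to 0.51, adjusted p = 0.93).

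Transgenic Sesn2 muscle stood apart in the basal state. Its Mettl21e values were 4.15, 7.37, 6.37 and 5.14, against 2.17, 1.08, 0.921 and 0.154 in basal WT and 1.93, 2.39, 2.03 and 2.18 in basal Sesn1SkM-Tg muscle. All 4 Sesn2SkM-Tg libraries were above all libraries of both other groups, while the Sesn1SkM-Tg and WT groups overlapped. The mean was 5.76 ± 1.41 (SD, n = 4) in Sesn2SkM-Tg, 1.08 ± 0.832 (SD, n = 4) in WT and 2.14 ± 0.202 (SD, n = 4) in Sesn1SkM-Tg muscle. This is the contrast on which the gene was chosen, with a log2 fold change of 1.77 (SE 0.24) against WT, to which 8 genes of the table had a higher one. Against Sesn2SkM-Tg, basal Sesn1SkM-Tg muscle gave -1.09 (SE 0.24). Basal Sesn1SkM-Tg muscle differed from the same WT libraries by 0.68 (SE 0.24), also a description, since those WT libraries entered the choice. The WT group was wide, with a coefficient of variation of 76.9%, and without its replicate 4, the library at 0.154, the Sesn2SkM-Tg difference was 1.51.

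After immobilization the Sesn2SkM-Tg libraries no longer stood apart. Their Mettl21e values were 0.569, 0.131, 0.795 and 0.0433, those of immobilized WT muscle 0.405, 0.315 and 0.299, and those of immobilized Sesn1SkM-Tg muscle 0.380, 0.656 and 0.157. The 3 groups overlapped, and the log2 differences were 0.01 for Sesn2SkM-Tg against WT and 0.03 for Sesn1SkM-Tg against Sesn2SkM-Tg. The sign of both turned under some other settings. Sesn1SkM-Tg against WT gave 0.05 (95% interval -0.52 to 0.62, adjusted p = 1). In the Sesn2SkM-Tg line the log2 fold change of immobilization was -2.30 (SE 0.24), a description, since its basal libraries chose the gene, and the immobilized mean was 6.68% of the basal one. In the Sesn1SkM-Tg line Mettl21e fell by 1.18 (SE 0.26, limma adjusted p = 0.0016), where 34.7% of all genes were differentially expressed, and the basal and immobilized groups did not overlap. In set 1 Mettl21e reached a normalized count of 1, the limit for testing a gene, in basal libraries only. The limma adjusted p of this fall was at most 0.0062 under the other settings, among them a fit without that limit. In WT muscle of set 1, whose basal libraries also entered the choice, the change was -0.55 (SE 0.26), given as a description, and 1 basal library, at 0.154, lay below all 3 immobilized ones. Without that library it was -0.80, and without basal replicate 1, at 2.17, it was -0.31. The response of Sesn1SkM-Tg differed from that of WT muscle by -0.63, a value that rests on the same basal WT libraries.

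Sesn1KO and WT muscle were not shown to differ in Mettl21e. Basal Sesn1KO muscle differed from WT muscle by 0.34 (95% interval -0.15 to 0.83, limma adjusted p = 1), and immobilized Sesn1KO muscle by 0.16 (-0.33 to 0.65, adjusted p = 0.81). The groups overlapped in both states.

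**Figure D2:**
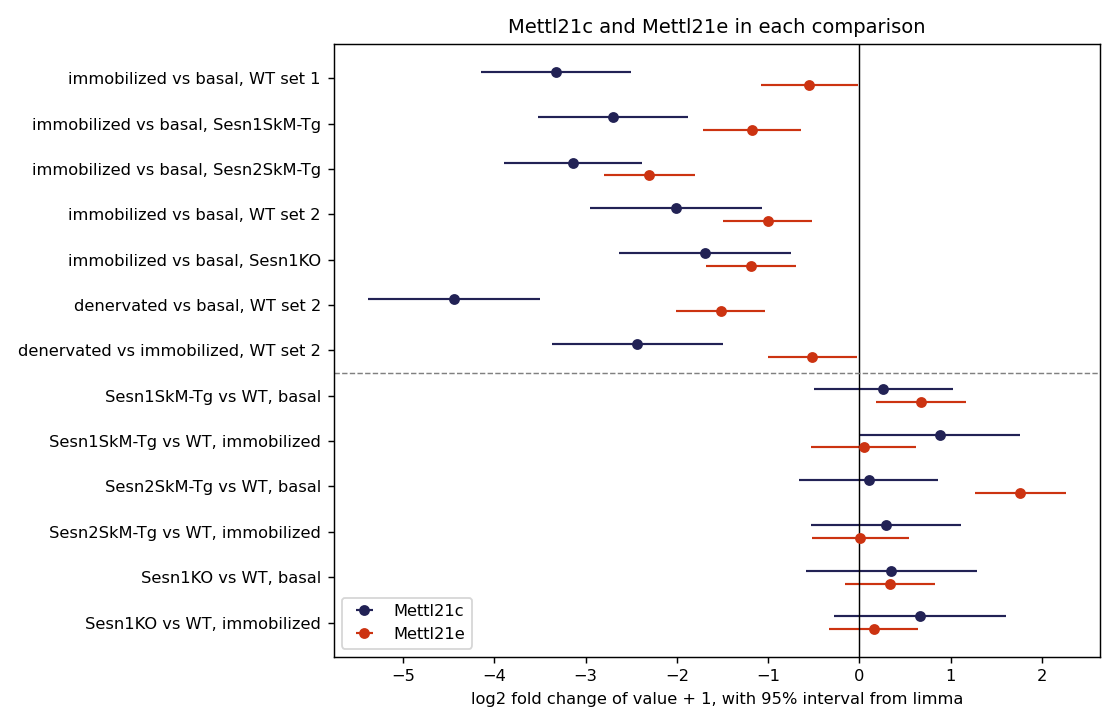
Log2 fold change of value + 1 for Mettl21c (dark blue) and Mettl21e (red) in 13 comparisons, with 95% intervals from limma, disuse comparisons above and genotype comparisons under the dashed line. Every disuse comparison lies below 0 for both genes, from -4.44 for Mettl21c after denervation to -0.51 for Mettl21e in denervated against immobilized muscle, and the largest genotype difference is the 1.77 of Mettl21e in basal Sesn2SkM-Tg muscle. The contrasts that chose the genes (all disuse comparisons of Mettl21c and the Sesn2SkM-Tg comparisons of Mettl21e), and the others of Mettl21e that use the basal WT libraries of set 1, are descriptions. The genotype comparisons of Mettl21c in immobilized muscle are descriptions too.

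Ordered by mean, Mettl21c in set 1 ran from basal Sesn1SkM-Tg (46.6) through Sesn2SkM-Tg (41.4) and WT muscle (39.6), 3 groups whose libraries overlapped, to immobilized Sesn1SkM-Tg, Sesn2SkM-Tg (4.18) and WT muscle (2.99), which overlapped likewise. In set 2 it ran from basal Sesn1KO (59.8) and WT (48.7), which overlapped, to immobilized Sesn1KO and WT (10.3), which also overlapped, and to denervated muscle (1.10), which overlapped with none. The highest immobilized Sesn1KO library also lay within the range of basal WT muscle. For Mettl21e in set 1 basal Sesn2SkM-Tg came first, before basal Sesn1SkM-Tg and WT, and the 3 immobilized groups, with means of 0.340 to 0.398, could not be ordered. In set 2 basal Sesn1KO (3.21) and WT (2.44) came before immobilized Sesn1KO (0.928) and WT (0.669) and denervated muscle (0.159). There the basal groups overlapped with each other, as did the immobilized ones, and the lowest immobilized Sesn1KO library, at 0.144, lay among the denervated ones.

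Muscle fibre transcripts were also lower after disuse, so the members were set against them. Of 8 fibre markers, 5 fell with immobilization in WT muscle of set 1, 3 fell and 1 rose in set 2, and all 8 fell with denervation, where 14.5%, 17.7% and 27.7% of all genes were lower. The summed value of the markers (Acta1, Ckm, Ttn, Myh4, Myh1, Tnnt3, Pvalb and Actn3) was 132002 to 145838 in basal WT muscle of set 2, 117522 to 127136 in immobilized and 54105.5 to 72064.1 in denervated muscle. Per 100000 of that sum, Mettl21c was at 20.9 to 62.8 in the basal, 6.41 to 10.01 in the immobilized and 1.19 to 2.31 in the denervated libraries, and Mettl21e at 0.843 to 2.72, 0.341 to 0.923 and 0.0412 to 0.371. The 3 groups of Mettl21c stayed apart on this scale, while those of Mettl21e overlapped. In set 1 the ratio of Mettl21c was 20.4 to 34.2 in basal and 2.63 to 3.77 in immobilized WT muscle, where the fibre sum was 120626 to 151452 and 77142.5 to 94245.2. Leukocyte markers (Ptprc, Cd68 and Emr1, 3 of the 4 chosen) were higher as a sum, at 4.02 to 18.6 in basal, 24.2 to 43.7 in immobilized and 20.1 to 51.0 in denervated WT muscle of set 2, and to 4.64 to 10.7 in basal and 33.6 to 70.6 in immobilized WT muscle of set 1. All 3 rose in set 1, but in set 2 Cd68 alone rose, with immobilization (3.37, adjusted p = 4.1e-08) and with denervation (3.77, adjusted p = 9.6e-10), where Ptprc gave -0.72 (adjusted p = 0.13) and Emr1 -0.41 (adjusted p = 0.45). With immobilization 2 of 3 fibroblast and 2 of 3 Schwann cell markers rose in set 1, where 1 of 3 endothelial markers rose and 1 fell, and 3 of 3 endothelial and 2 of 3 fat markers fell in set 2, and 1 of 2 satellite cell markers rose in each set. With denervation all 3 endothelial markers fell, as did 2 of 3 fibroblast markers, 3 of 3 fat markers and 1 of 3 Schwann cell markers, while 1 of 2 satellite cell markers rose. The summed values of all genes were also lower, at 722430 to 811541 in denervated against 1042064 to 1099736 in basal WT libraries of set 2. The part of these changes in the result was not tested. In bulk muscle fewer cells of a type and less RNA per cell cannot be told apart. The fibre type myosins did not all move with the members. Myh4, the IIb myosin, was lower in immobilized WT muscle of set 1 (-0.83, adjusted p = 0.039), while Myh2 of IIa fibres (1.12, adjusted p = 0.038) and Myh1 of IIx fibres (0.53, adjusted p = 0.049) were higher in set 2, and denervation lowered Myh4, Myh1 and Myh2 but gave 0.23 for Myh7, the slow myosin, which did not pass the test.

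Related methyltransferases moved in both directions with disuse. Of 16 related seven-beta-strand methyltransferases, 13 were in the table, and in immobilized WT muscle of set 1 Mettl10, which methylates eEF1A, was higher (0.49, adjusted p = 0.031) while Mettl13, another eEF1A methyltransferase, and Fam173a, which methylates the mitochondrial ADP/ATP carrier, were lower (-0.50, adjusted p = 0.012, and -0.64, adjusted p = 0.030). The median of the list was -0.23, against 0.0028 for all genes tested, of which 14.9% were higher and 14.5% lower. In set 2, 1 rose and 5 fell with immobilization (median -0.31, all genes -0.021, 16.2% of which were higher and 17.7% lower). They ran from Fam173a at -0.68 (adjusted p = 0.0013) to Mettl13 at 0.36 (adjusted p = 0.039), so Mettl13 moved in opposite directions in the 2 sets. With denervation, where 27.8% of all genes were higher and 27.7% lower, Mettl13 (0.75, adjusted p = 6.3e-05), Mettl21a, which methylates Hsp70 chaperones (0.68, adjusted p = 0.00038), and N6amt1 (0.55, adjusted p = 0.0019) rose, and Fam173a (-0.83, adjusted p = 7.1e-05) and Mettl23 (-0.59, adjusted p = 0.00032) fell. Vcpkmt, which methylates the ATPase VCP, gave 0.26 (adjusted p = 0.28). Immobilization raised 1 and lowered 3 of the 13 in Sesn1SkM-Tg, raised 0 and lowered 3 in Sesn2SkM-Tg, and raised 2 and lowered 7 in Sesn1KO muscle, where 34.7%, 30.7% and 37.1% of all genes were differentially expressed in either direction. Over the 8 genotype comparisons limma called 0 of 104 tests of the list, with 9 at an unadjusted p under 0.05.

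Of 8 other methyltransferases chosen for muscle, Smyd1, a lysine methyltransferase of striated muscle needed for sarcomere assembly, changed most in set 1 and with denervation. It fell by 1.34 in set 1 (adjusted p = 7.2e-06), by 0.57 in set 2 (adjusted p = 0.011) and by 1.68 with denervation (adjusted p = 3e-08). Its normalized count was 549 ± 43.6 (SD, n = 4) in basal, 371 ± 51.3 (SD, n = 4) in immobilized and 171 ± 17.0 (SD, n = 4) in denervated WT muscle of set 2. Smyd3 also fell in all 3 comparisons, by 0.55 to 0.72, and was the lowest of the 8 in set 2 (-0.72, adjusted p = 0.00083). Smyd5 rose with denervation (0.95, adjusted p = 3.8e-06), as did Setd7 (0.65, adjusted p = 0.00015). Setd3, the actin histidine methyltransferase, gave -0.30 with denervation (adjusted p = 0.020). In all, 1 of the 8 rose and 3 fell in set 1, where 14.9% of all genes were higher and 14.5% lower. In set 2, 2 rose and 2 fell, against 16.2% and 17.7% of all genes, and with denervation 2 rose and 4 fell, against 27.8% and 27.7%.

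Of the transcripts of 5 proteins described as substrates of the family, 4 rose and 1 fell with denervation, where 27.8% of all genes were higher and 27.7% lower. Eef1a1 (1.3, adjusted p = 0.00011), Hspa8 (0.81, adjusted p = 9.1e-05), Vcp (0.73, adjusted p = 2.7e-07) and Aars (0.56, adjusted p = 0.00022) rose, while Eef1a2, the eEF1A form of adult muscle, fell by 1.02 (adjusted p = 1.8e-08). In immobilized WT muscle of set 2, where 16.2% of all genes were higher, Aars (0.73, adjusted p = 4.2e-05) and Vcp (0.49, adjusted p = 0.00013) rose. In set 1 Eef1a1 rose (1.31, adjusted p = 0.00014), Eef1a2 fell (-0.61, adjusted p = 0.029), and Hspa8, the described METTL21C substrate, gave -0.38 (adjusted p = 0.16), with 0.32 in set 2 (adjusted p = 0.10). Aars was also higher in immobilized Sesn2SkM-Tg than in immobilized WT muscle (0.57, adjusted p = 0.022).

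**Figure D3:**
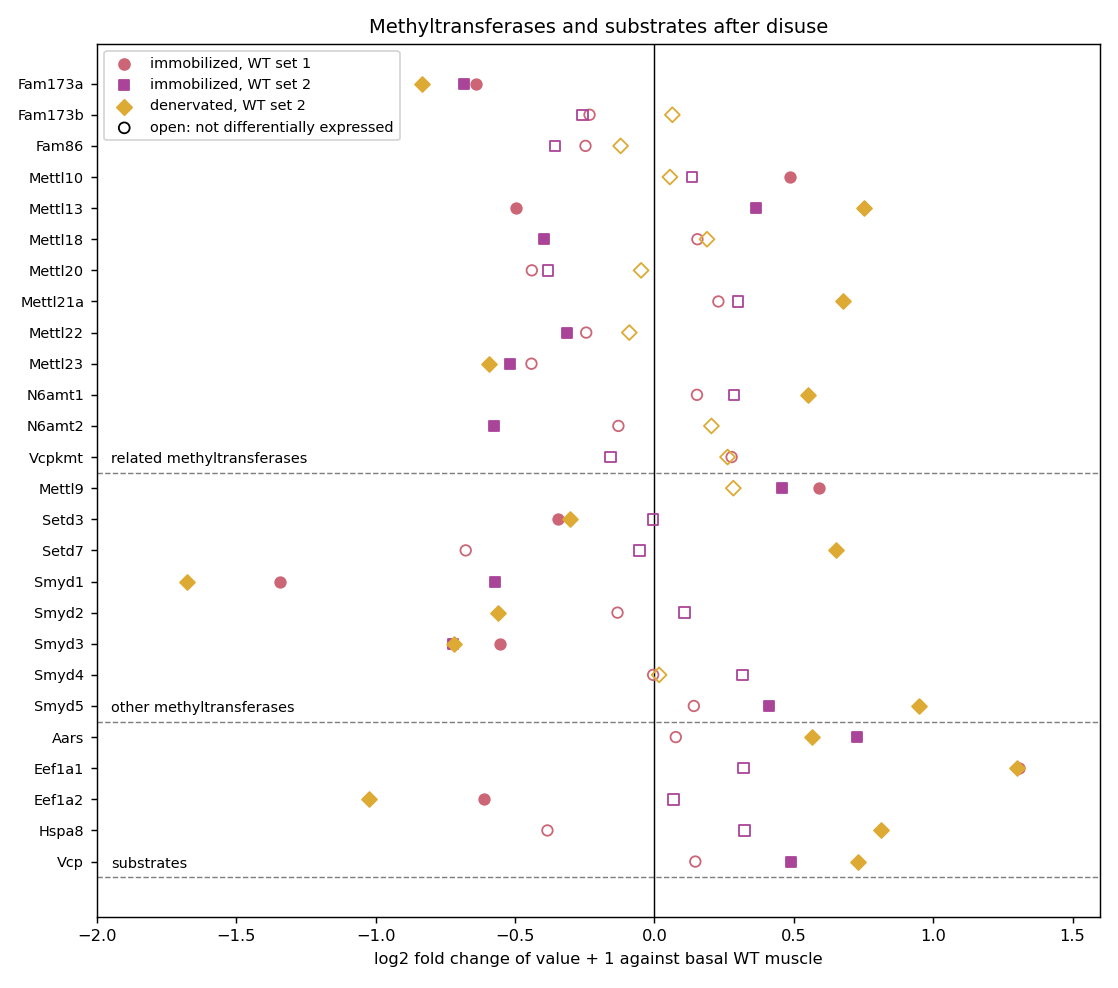
Log2 fold change against basal WT muscle of 13 related methyltransferases, 8 other methyltransferases and 5 substrate transcripts, for immobilization in set 1 (circles) and set 2 (squares) and denervation (diamonds), where filled symbols are differentially expressed genes in limma. Smyd1 lies lowest for immobilization in set 1, at -1.34, and for denervation, at -1.68, while Smyd3 lies lowest for immobilization in set 2, at -0.72, and the related methyltransferases lie between -0.83 and 0.75.

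In WT muscle the 1 neighbouring gene that fell with disuse was a pseudogene inside Mettl21e. Within 250 kb of either member the table holds 7 other genes. Of these, 3 rose and 1 fell with denervation, where 27.8% of all genes were higher and 27.7% lower. With immobilization of WT muscle, 0 rose and 1 fell in set 1, against 14.9% and 14.5% of all genes. In set 2, 1 rose and 0 fell, against 16.2% and 17.7%. With denervation Uxs1 (1.15, adjusted p = 2.1e-07), Tpp2 (0.73, adjusted p = 2.7e-07) and Tex30 (0.79, adjusted p = 0.00027) were higher. Of these, Tex30 lies between the members, as do Kdelc1, Bivm and Ercc5, which gave 0.33, -0.23 and 0.09 and did not pass the test. Gm15833, a processed pseudogene on the plus strand at chr1:44212162-44213118, lies in an intron of Mettl21e and shares no annotated exon base with it. It was lower with denervation (-1.09, adjusted p = 0.00031) and in immobilized WT muscle of set 1 (-0.64, adjusted p = 0.044), and gave -0.51 in set 2 (adjusted p = 0.085). Its normalized count was at most 2.84 in any library. On log2(value + 1), Gm15833 and Mettl21e correlated at Pearson's r of 0.843 over the 22 libraries of set 1 and 0.861 over the 20 of set 2. The sources used here do not state whether counting used strand, and whether reads of unspliced Mettl21e RNA were counted for Gm15833 was not tested.

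The genes whose pattern was most like Mettl21c were led by Lrig1 and Smyd1. Likeness was the smaller of the Pearson correlations over the 22 libraries of set 1 and the 20 of set 2, on log2(value + 1), among 13571 genes, and it is a description, since the libraries share their groups. It was 0.948 for Lrig1, a negative regulator of growth factor receptors, 0.946 for Smyd1, 0.940 for Casq1, the calcium buffer of the sarcoplasmic reticulum, 0.935 for Jph2, which holds the junctional membranes together, and 0.933 for Sh3bgr. With denervation the log2 fold changes of these 5 were -2.37, -1.68, -1.98, -1.79 and -1.89, smaller than the -4.44 of Mettl21c. For Mettl21e the most alike were Fkbp3 (0.884), 4632428C04Rik (0.879), Fam213b (0.861), Gm13490 (0.850) and Gm15833. Of these, 4632428C04Rik and Fam213b had the largest log2 differences between basal Sesn2SkM-Tg and WT muscle, 1.15 and 0.87, in libraries that the likeness itself used. Mettl21c and Mettl21e correlated with each other at 0.728 in set 1 and 0.852 in set 2, and 645 genes were more like Mettl21c and 186 more like Mettl21e by this measure.

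**Figure D4:**
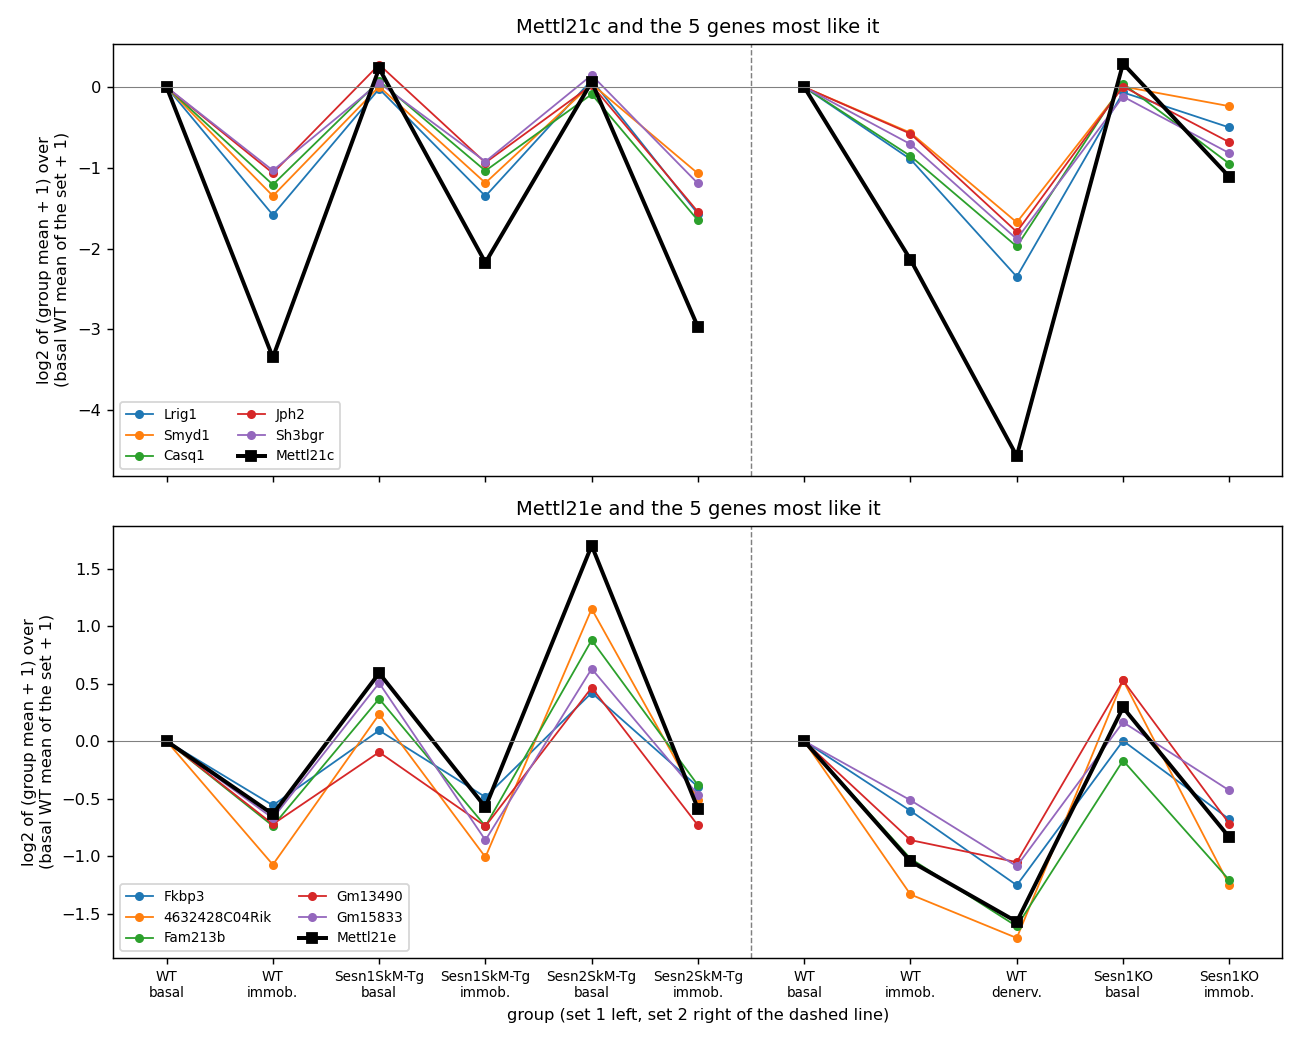
Group means of Mettl21c (top) and Mettl21e (bottom), as black squares, and of the 5 genes most like each, as the log2 ratio of mean + 1 to that of the basal WT group of the same set, over the 6 groups of set 1 and the 5 of set 2. The genes alike to Mettl21c lie below 0 in each immobilized and denervated group, nearer to 0 than Mettl21c, and those alike to Mettl21e all lie above 0 in basal Sesn2SkM-Tg muscle.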

How the data were processed

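RNA of TA muscle was sequenced by the authors on an Illumina HiSeq instrument after NEBNext Ultra library preparation. By the paper's methods and the submitters' processing notes, reads were checked with FastQC, trimmed with Cutadapt 1.7.1, quantified with RSEM 1.2.20 on GRCm38 and normalized with limma, and edgeR is also named. The deposited values are treated as a signal: normalized counts of 13809 genes on a linear scale, with no zeros. Read depth is unknown, so no count test was run. How the sets were combined is not given in the sources used here, so comparisons stayed within a set, and an adjustment of each gene between the sets, if one was made, would alter levels compared between genes. Genes that reached 1 in any library of a set were kept (13705 in set 1, 13629 in set 2) and fitted with limma 3.58.1 in R 4.3.3 as log2(value + 1) with 1 coefficient per group and eBayes with a trend, two-sided. The fit was tested on simulated data. The members and lists were chosen with earlier results of these data known. Named genes are the members, lists of methyltransferases, substrates, neighbours within 250 kb, myosins and markers, and the 5 genes most like each member. Positions and sequences came from GENCODE M21, which matched 13715 of the table's genes. Promoter and protein sequences of the members were not used here. Alternatives were other pseudocounts, filters, scalings and fits, and leaving out each library. Figures were drawn with matplotlib 3.10.9.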

Additional observations from a re-analysis of the deposited data

Results flagged for a closer look

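For a sample far from the others, 18 tests were made, each of 1 gene in 1 group of 4 libraries. The 2 genes shared these libraries. Of the tests, 1 singled out a sample, and chance alone picks about 1 in 20. In basal WT muscle of set 2 the Mettl21c value of replicate 4, 90.9, stood away from the other 3 libraries at 30.2 to 37.2, with a gap of 0.885 of the range of the group against a limit of 0.829. The gap was taken on normalized counts. On the log2(value + 1) scale of the fits, where it was not tested, the values of replicates 1 to 4 were 4.96, 5.25, 5.23 and 6.52. Mettl21e was not unusual in replicate 4, at 2.97 among 1.22 to 3.59.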

How the results depend on the processing

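Recomputing the pair gave 340 values under other settings and 288 with 1 library left out, counted by gene, comparison and setting, so that 1 fit can give several. Of these, 327 and 276 kept their call or size, and 5 and 9 turned the sign of 3 differences that were not tested. Leaving out 1 library also turned the sign of 3 tested differences that were not called, in 5 values: Mettl21c in basal Sesn2SkM-Tg against WT (to -0.0249), and Mettl21e in immobilized Sesn1SkM-Tg against WT (to -0.0831) and in the difference in response of Sesn1KO (to 0.0479). With a pseudocount of 0.1, Mettl21c changed by -5.25 with denervation, and Mettl21e by -3.93 with immobilization in Sesn2SkM-Tg, by -1.06 with immobilization in WT of set 1, by 2.65 and 1.29 between basal Sesn2SkM-Tg or Sesn1SkM-Tg and WT muscle, by -1.23 in the difference in response of Sesn1SkM-Tg, by -0.22 between immobilized Sesn2SkM-Tg and WT muscle, and by -1.58 (adjusted p = 0.014) between denervated and immobilized muscle, which was -0.513 (adjusted p = 0.032) with only the compared groups. Median centring and rescaling to a common sum gave -0.00484 and -0.0148 for Mettl21e in immobilized Sesn2SkM-Tg against WT. Quantile normalization gave -0.692 for Mettl21e with immobilization in WT of set 1 and -0.0614 between the immobilized transgenic lines, where a replicate block gave -0.0673. Without 1 library, Mettl21e ranged from -0.80 to -0.314 for immobilization in WT of set 1, from -0.124 to 0.136 for immobilized Sesn2SkM-Tg against WT and from -0.0955 to 0.171 between the immobilized transgenic lines. Mettl21c ranged from -3.26 to -2.04 for immobilization in Sesn1SkM-Tg and from 0.262 to 1.3 for immobilized Sesn1KO against WT. For the differences in response of Sesn1SkM-Tg and Sesn1KO it ranged from 0.0589 to 1.28 and from -0.089 to 0.944. The cause was not tested. That rescaling moved the median log2 fold change of all genes to between 0.25 and 0.348 in the immobilization comparisons of set 1, denervation and denervation against immobilization, a shift common to all genes, and left Mettl21c at -3.04 for immobilization in WT of set 1 and -4.14 for denervation. Replicate numbers were not taken as pairs of samples. Residuals of same-numbered libraries correlated at -0.452 to 0.534 in set 1 (18 of 51 pairs over 0.1) and -0.244 to 0.235 in set 2 (6 of 40). Those of differently numbered libraries spread alike, at -0.507 to 0.584 (44 of 150) and -0.275 to 0.281 (18 of 120). The replicate block changed no call of the 2 genes.

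Counts of genes called moved by over 1.5 times in small comparisons. For Sesn1SkM-Tg against WT the 4 basal and 1 immobilized genes became 2 and 2 with quantile normalization and 9 and 3 with both sets in the fit, and the basal count 1 with only the compared groups. For Sesn2SkM-Tg against WT the 343 and 403 became 623 and 773 with both sets and 103 and 233 with only the compared groups, and the 403 became 229 with the replicate block. Between the transgenic lines 246 and 793 became 444 and 1211 with both sets, and the 793 became 143 with only the compared groups. For immobilized Sesn1KO against WT 129 became 71 and 14 in those fits. The 3 genes of the Sesn1KO difference in response became 5 with quantile normalization or median centring and 0 in limma without the trend, with the block, with both sets or with only the compared groups (1079, 1064, 821 and 960 at an unadjusted p under 0.05). The values at low expression, and the unknown depth, limit what can be said of Mettl21e.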
